A study of Mus musculus with 6 samples.

Results

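Bulk RNA sequencing of the mouse retina at postnatal day (PN) 18 was examined for 10 genes of the Notch pathway. These were the receptors Notch1, Notch2 and Notch3, the ligands Jag1, Jag2, Dll1 and Dll4, and the target genes Hes1, Hes5 and Hey1, taken from the 32285 genes of the count table. They were chosen by name with their values in this same comparison known, so those values are given below as a description, with no test. All 6 libraries came from wild-type C57BL/6J pups in the oxygen-induced retinopathy (OIR) model, in which 75% O2 from PN8 for 5 days removes the central retinal capillaries and the return to room air at PN13 brings on vessel growth. The OIR-CIH group (3 libraries) was then compared with the OIR-Norm group (3 libraries): OIR-CIH pups were put through chronic intermittent hypoxia (CIH), 266 daily cycles of 135 s over 10 h that took cage O2 from 20.95% down to 5%, and OIR-Norm pups received the same gas flow with no change in O2. Both groups had been through the hyperoxia, so each value describes CIH on top of OIR.

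Notch receptors are read out by contact between neighbouring cells. A Jagged or Delta-like ligand on 1 cell pulls on the receptor of the next, proteases release the receptor's intracellular part, and that part joins the DNA-binding protein RBPJ to switch on Hes and Hey genes, which encode transcriptional repressors. In the retina the pathway is known for keeping progenitors undifferentiated, and it also acts in Muller glia. In growing vessels it is known for the choice between tip and stalk cells, in which Dll4 restrains sprouting and Jag1 can oppose it, and Notch3 is known as a receptor of the mural cells that wrap vessels.

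The libraries held between 26289905 and 38010151 counted reads. Values are CPM, the counts of a gene relative to all counts of its library, after scaling by the trimmed mean of M-values (TMM), and n = 3 libraries a group throughout. The labels give 3 eyes a group and each library is called a retina below, yet 6 of 6 libraries held at least 10 counts both of Xist and of Y-linked genes, so the number of animals behind each one is not known, and errors and p-values measure only the spread between these libraries. In whole-retina RNA, fewer cells of a type and less RNA per cell cannot be told apart. OIR-Norm replicate 2 stood apart from the others in lens RNA: the summed level of the 5 lens crystallin and related genes measured was 376 CPM there, against 11.4 to 57.7 CPM in the other 5 retinas. Values of the 10 genes, of vessel, tip cell, rod and lens genes and of Notch4 and Nrarp that rest on this library are given with and without it.

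Of the 10 genes, Notch1 and Jag1 were lower in every OIR-CIH retina than in every OIR-Norm retina, Hey1 was higher in every OIR-CIH retina, and the groups overlapped for the other 7. Groups that do not overlap were found for 18.4% of the 20021 genes tested, 9.26% lower and 9.12% higher. Notch1 and Jag1 were also past the threshold used for calling a gene changed, a Benjamini-Hochberg adjusted p under 0.05 in edgeR's quasi-likelihood test with an absolute log2 fold change over 0.5. That threshold was passed by 63 genes, or 0.315% of those tested, 0.21% lower and 0.105% higher, and DESeq2 called 0.858% of the genes it gave an adjusted p. The 10 genes were picked from this comparison, so nothing is read from their share. Their median log2 fold change was −0.09, with 5 above and 5 below 0, beside −0.005 over all genes tested. Without OIR-Norm replicate 2 the median was 0.04, with 6 above and 4 below 0, and neither Notch1 nor Jag1 was past the threshold, for the values given with each gene below.

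Jag1 and Notch1, the genes past the threshold, are shown first with the sequence just before a start site, and Hes5 is shown with them because it was the only gene of the 8 with a promoter in the reference that held the RBPJ motif. The sequences come from RefSeq for the build GRCm38.p6 and run 5′ to 3′ on the strand of the gene. Capitals mark TGGGAA, the core recognised by RBPJ, or its reverse complement TTCCCA. The Notch1 sequence is chr2:26503823-26504072 on the minus strand, the 250 bases before the RefSeq start, and it lies inside the gene as annotated by GENCODE, which has a start farther upstream. The Jag1 sequence is chr2:137116645-137116770 on the minus strand, the 126 bases of the window that lie before the start of the annotated gene. The Hes5 sequence is chr4:154960673-154960922 on the plus strand, the 250 bases before the start.
Notch1: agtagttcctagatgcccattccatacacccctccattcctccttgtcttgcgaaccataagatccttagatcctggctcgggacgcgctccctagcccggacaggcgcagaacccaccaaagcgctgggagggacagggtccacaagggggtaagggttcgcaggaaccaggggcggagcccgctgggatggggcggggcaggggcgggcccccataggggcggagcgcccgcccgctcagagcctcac
Jag1: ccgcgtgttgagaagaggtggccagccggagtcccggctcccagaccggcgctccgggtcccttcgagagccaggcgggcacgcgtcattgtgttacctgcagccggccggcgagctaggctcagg
Hes5: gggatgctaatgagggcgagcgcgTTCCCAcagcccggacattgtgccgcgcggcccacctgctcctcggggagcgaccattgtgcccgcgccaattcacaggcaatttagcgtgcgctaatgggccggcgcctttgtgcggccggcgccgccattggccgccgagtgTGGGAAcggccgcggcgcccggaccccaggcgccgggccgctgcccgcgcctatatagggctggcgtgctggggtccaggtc

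The Hes5 sequence held the motif at 2 places, 1 on each strand, whose first bases lay 226 and 82 bases before the start. Both were the longer form GTGGGAA, read on either strand. Among 32851 promoter windows of 250 bases, 21.6% held TGGGAA on either strand and 5.42% held GTGGGAA, which contains it. The windows of Notch1, Notch2, Notch3, Jag1, Jag2, Dll1 and Dll4 did not hold these letters. Hes1 and Hey1 had no promoter in the reference, so they were not searched. A match describes the letters only.

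Notch1 encodes the receptor best known from neural progenitors and endothelial cells. The gene (ENSMUSG00000026923) lies at chr2:26457903-26516663 on the minus strand. Its level was 25.1, 26.7 and 30.6 CPM with CIH and 41.6, 43.3 and 35.4 CPM without it. The groups did not overlap, and the nearest values of the 2 groups were OIR-CIH replicate 3 and OIR-Norm replicate 3. The means were 27.5 ± 2.80 and 40.1 ± 4.18 CPM (SD), so the OIR-CIH level was 68.5% of the OIR-Norm level, with a log2 fold change of −0.54 ± 0.10 (SE). These values rest on 640 to 1281 reads a library. The fold change ran from −0.63 to −0.48 when 1 library was left out, always below 0, and remained past the threshold in 2 of the 6 fits. The call was lost without OIR-CIH replicate 1 (−0.485), OIR-CIH replicate 2 (−0.52), OIR-Norm replicate 1 (−0.52) and OIR-Norm replicate 2 (−0.48).

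Notch2, a receptor found in glia and in many other cells, did not show this difference. The gene (ENSMUSG00000027878) lies at chr3:98013527-98150361 on the plus strand. Its level was 43.0, 45.5 and 44.2 CPM with CIH and 48.4, 42.7 and 36.5 CPM without. All 3 OIR-CIH values lay inside the range of the OIR-Norm values. The log2 fold change was 0.06 ± 0.10 (SE). Divided by Notch2 of the same retina, Notch1 stood at 0.584, 0.588 and 0.692 in OIR-CIH and at 0.860, 1.02 and 0.969 in OIR-Norm. This ratio, which does not depend on how the libraries are scaled, did not overlap between the groups and had means of 0.621 ± 0.0611 and 0.948 ± 0.0796 (SD). It was chosen after the levels had been seen.

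Notch3 (ENSMUSG00000038146, chr17:32120820-32166852, minus strand) spread widely among the OIR-Norm retinas, whose values lay on both sides of the OIR-CIH values. Its level was 5.73, 5.83 and 8.07 CPM in OIR-CIH and 8.21, 13.4 and 4.87 CPM in OIR-Norm. OIR-Norm replicate 2 was the highest of the 6 retinas and OIR-Norm replicate 3 the lowest. The log2 fold change of −0.40 ± 0.28 (SE) moved to 0.02 without OIR-Norm replicate 2 and to −0.70 without OIR-Norm replicate 3. Set per kilobase of exon over all 4 receptors, Notch4 included, Notch1 made up 26.3 ± 0.974% of receptor level in OIR-CIH and 33.0 ± 2.59% in OIR-Norm (SD), while Notch2 made up 56.1 ± 3.25% and 46.1 ± 4.93%. In this make-up Notch2 was the most abundant receptor in both groups.

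**Figure D1:**
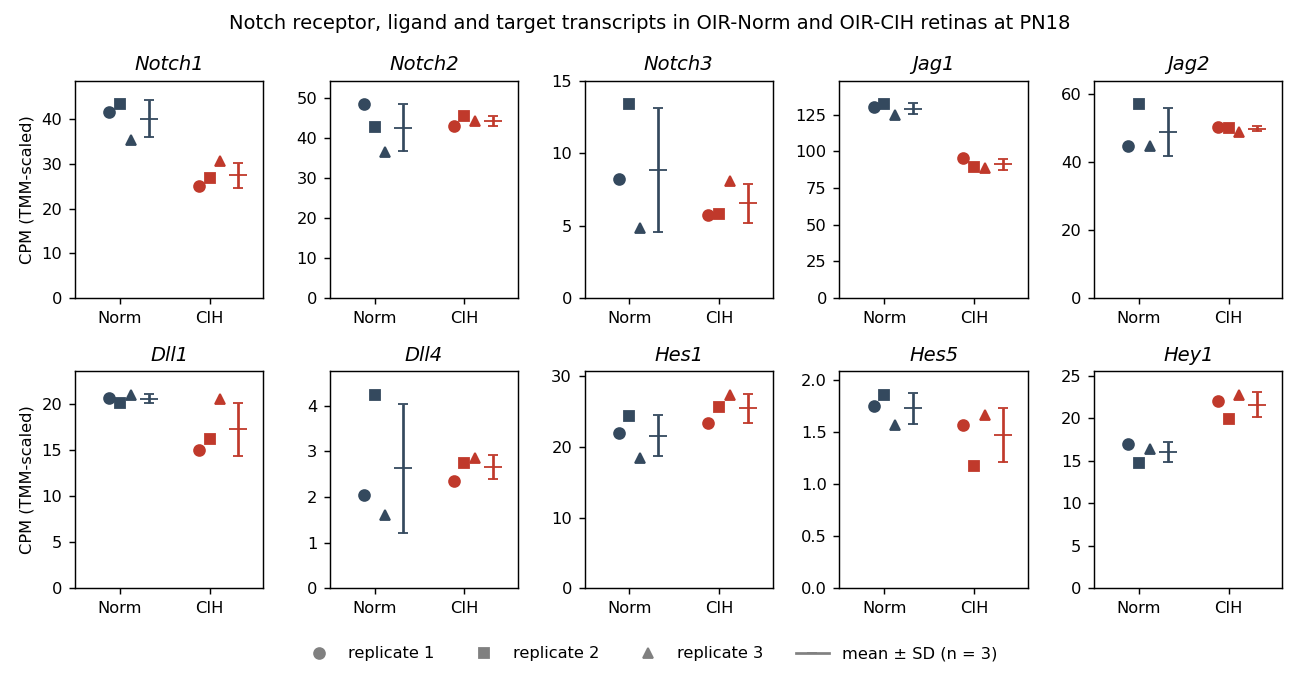
Level of each of the 10 Notch genes in CPM (vertical axes, each starting at 0) in every OIR-Norm and OIR-CIH retina, with the mean and SD of 3 retinas a group. Notch1 and Jag1 lie lower and Hey1 lies higher in all 3 OIR-CIH retinas, and Notch3 and Dll4 spread most among the OIR-Norm retinas.

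Jag1 encodes a ligand that in the eye is made by glia, lens and vessels. The gene (ENSMUSG00000027276) lies at chr2:137081456-137116644 on the minus strand. It was measured at 95.6, 89.3 and 88.5 CPM with CIH and at 131, 132.2 and 125.1 CPM without it. The 2 groups were well apart, and the spread within each was small. The means were 91.2 ± 3.86 and 129.3 ± 3.73 CPM (SD), so that the level with CIH was 70.5% of that without, and the log2 fold change was −0.50 ± 0.07 (SE). The gene had 2436 to 4023 reads a library. Its fold change lay just past the 0.5 threshold, and it ranged from −0.54 to −0.49 with 1 library left out, past the threshold in 3 of the 6 fits. It fell short of the threshold without OIR-CIH replicate 2 (−0.49), OIR-CIH replicate 3 (−0.49) or OIR-Norm replicate 2 (−0.49).

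Jag2, the other Jagged ligand, showed no comparable difference. Its level (ENSMUSG00000002799, chr12:112907819-112929776, minus strand) was 50.2, 50.03 and 48.9 CPM in OIR-CIH and 44.7, 56.9 and 44.5 CPM in OIR-Norm. The OIR-CIH values lay within the OIR-Norm range, and the log2 fold change was 0.03 ± 0.10 (SE). Jag1 over Jag2 within a retina was 1.90, 1.79 and 1.81 in OIR-CIH and 2.92, 2.33 and 2.81 in OIR-Norm, which did not overlap. This ratio too was chosen after the levels were known.

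Dll1, the Delta-like ligand of differentiating neurons, lay between these patterns. Its level (ENSMUSG00000014773, chr17:15367354-15376872, minus strand) was 15.1, 16.3 and 20.5 CPM in OIR-CIH and 20.7, 20.1 and 21.0 CPM in OIR-Norm. OIR-CIH replicate 3 reached the OIR-Norm range and the other 2 OIR-CIH retinas were below it, for a log2 fold change of −0.25 ± 0.12 (SE). It moved between −0.40 without OIR-CIH replicate 3 and −0.16 without OIR-CIH replicate 1.

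Dll4, the ligand of endothelial tip cells, had the lowest mean of the 10 genes per length of transcript, in a range that overlapped that of Notch3. The gene (ENSMUSG00000027314, chr2:119325784-119335962, plus strand) was counted only 51 to 121 times a library. Its level was 2.35, 2.74 and 2.86 CPM in OIR-CIH and 2.045, 4.25 and 1.602 CPM in OIR-Norm. The OIR-Norm retinas held both the highest and the lowest values, so the means of 2.65 ± 0.263 and 2.63 ± 1.42 CPM (SD) were close while the spread was not. The log2 fold change of 0.04 ± 0.31 (SE) became 0.55 without OIR-Norm replicate 2 and −0.22 without OIR-Norm replicate 3. At this spread a difference in Dll4 was not detectable. Of the 4 ligands per kilobase of exon, Jag1 made up 56.8 ± 2.19% in OIR-CIH and 63.9 ± 1.88% in OIR-Norm (SD), and Jag2 made up 25.9 ± 0.660% and 20.1 ± 1.91%.

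The target genes did not share 1 direction. Hey1, a repressor induced by Notch in vessels and in other cells, was higher with CIH. Its level (ENSMUSG00000040289, chr3:8663359-8667256, minus strand) was 22.1, 19.97 and 22.8 CPM in OIR-CIH and 17.0, 14.7 and 16.4 CPM in OIR-Norm. The groups did not overlap, with means of 21.6 ± 1.46 and 16.1 ± 1.18 CPM (SD). The OIR-CIH level was 134.5% of the OIR-Norm level, and the log2 fold change was 0.43 ± 0.10 (SE). Hey1 was not called in edgeR's test, with or without the minimum fold change. Its fold change ranged from 0.37 to 0.48 with 1 library left out.

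Hes1, the main effector in progenitors and Muller glia, was measured at 23.4, 25.7 and 27.4 CPM in OIR-CIH and at 22.0, 24.4 and 18.5 CPM in OIR-Norm (ENSMUSG00000022528, chr16:30064384-30067796, plus strand). OIR-CIH replicate 1 lay below OIR-Norm replicate 2, so the groups overlapped, and the log2 fold change was 0.24 ± 0.11 (SE). It moved between 0.14 without OIR-Norm replicate 3 and 0.33 without OIR-Norm replicate 2. Hes5, the target whose promoter is printed above, was near the limit of what this depth resolves, with 34 to 63 reads a library. Its level (ENSMUSG00000048001, chr4:154960923-154962371, plus strand) was 1.57, 1.18 and 1.67 CPM in OIR-CIH and 1.75, 1.86 and 1.57 CPM in OIR-Norm. The groups overlapped, and the log2 fold change of −0.22 ± 0.23 (SE) moved between −0.34 without OIR-CIH replicate 3 and −0.09 without OIR-CIH replicate 2. In the library with the fewest Hes5 reads, counting error alone had a coefficient of variation of 17.2%.

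Set per kilobase of exon, where genes can be compared with each other, Jag1 was the most abundant of the 10 genes in both groups. Its level was 22.2 ± 0.641 CPM per kilobase in OIR-Norm and 15.6 ± 0.659 in OIR-CIH (SD). Hes1 came next at 10.6 ± 1.45 and 12.5 ± 0.993 CPM per kilobase, followed by Jag2 at 6.99 ± 1.02 and 7.14 ± 0.107. In OIR-Norm the order went on with Hey1, Dll1, Notch2, Notch1, Hes5, Notch3 and Dll4. In OIR-CIH Notch2 came before Dll1, and the rest was in the same order. Neighbours that overlapped, and so had no order beyond their spread, were Hey1 and Dll1 in OIR-Norm, Notch2 and Dll1 in OIR-CIH, and in both groups Notch3 with Hes5 and Notch3 with Dll4. Hes5 was above Dll4 in every retina of the same group. The lowest level was that of Dll4, with 0.683 ± 0.367 CPM per kilobase in OIR-Norm and 0.688 ± 0.068 in OIR-CIH (SD).

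**Figure D2:**
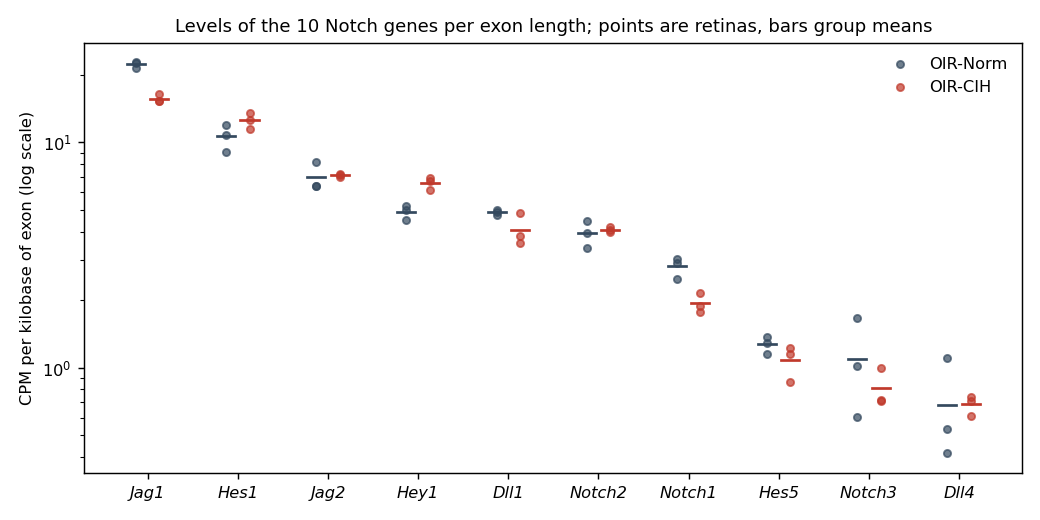
Level of the 10 Notch genes per kilobase of exon (CPM per kilobase, log axis) in each retina, ordered by the OIR-Norm mean, with OIR-Norm and OIR-CIH side by side. Jag1 leads in both groups, at 22.2 and 15.6 CPM per kilobase, and Hes5, Notch3 and Dll4 lie lowest, where the range of Notch3 overlaps those of both others.

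Markers of the cells of the vessel wall were set beside the Notch genes. Endothelial markers were lower with CIH for 9 of 10 genes (median log2 fold change −0.28) and mural cell markers for 8 of 8 (median −0.49), and none of these was called. That direction rested on OIR-Norm replicate 2. A fit without it, added after the data had been seen, gave 6 endothelial markers higher and 4 lower (median 0.04). It gave 3 mural cell markers higher and 5 lower (median −0.09), again with none called. Without OIR-Norm replicate 3 instead, endothelial markers were lower for 10 of 10 genes (median −0.47) with none called. Mural cell markers were then lower for 8 of 8 (median −0.81) with 1 called. Dll4, Notch3 and also Notch4, a receptor of endothelial cells, were also highest in OIR-Norm replicate 2, as was each of these markers other than Kdr and Tagln. The summed level of the 8 endothelial markers other than Kdr and Flt1, which were set aside after their values were seen because neurons and glia also make them, was 41.6, 48.2 and 63.7 CPM in OIR-CIH and 60.8, 99.9 and 36.5 CPM in OIR-Norm. With Kdr and Flt1 included, the sum was 274 to 312 CPM in OIR-CIH and 276 to 362 CPM in OIR-Norm. The summed mural cell markers were 85.9, 102 and 132 CPM in OIR-CIH and 149, 228 and 94.3 CPM in OIR-Norm.

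Set against endothelial markers of the same retina, Dll4 was higher with CIH by 2 of 3 measures. These measures are not separate from each other: all use the same Dll4 counts, and Pecam1 and Cdh5 are among the 8 summed markers. Divided by the 8 endothelial markers, it stood at 0.0565, 0.0568 and 0.0449 in OIR-CIH and at 0.0336, 0.0425 and 0.0439 in OIR-Norm, without overlap. Divided by Pecam1, an adhesion molecule of endothelial cells, Dll4 stood at 0.251, 0.258 and 0.229 in OIR-CIH and at 0.166, 0.174 and 0.192 in OIR-Norm, again without overlap. Divided by the endothelial cadherin Cdh5, the groups overlapped, with 0.417, 0.449 and 0.271 in OIR-CIH and 0.198, 0.213 and 0.323 in OIR-Norm. Notch4 over the 8 markers was lower in OIR-CIH, at 0.0792, 0.0784 and 0.0744 against 0.0977, 0.0920 and 0.0989. Notch3 divided by Pdgfrb, by Rgs5 or by the 8 mural cell markers overlapped between the groups. These ratios were chosen after the levels had been seen, carry no test, and rest for Dll4 on few reads.

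**Figure D3:**
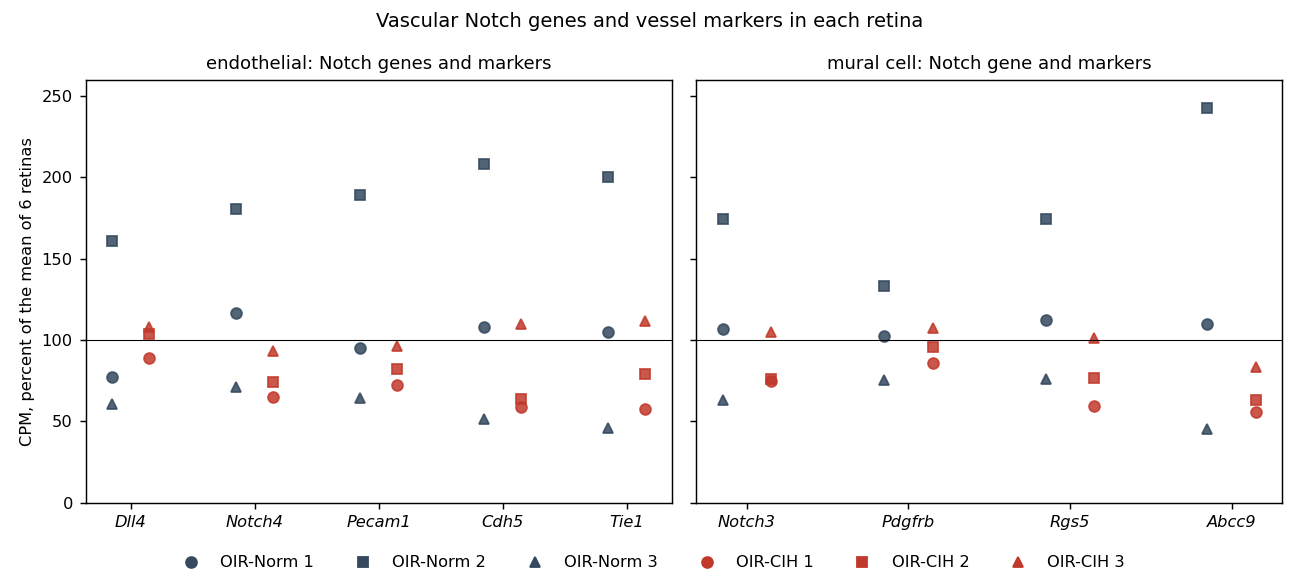
Level of Dll4, Notch4 and endothelial markers (left) and of Notch3 and mural cell markers (right) in each retina, as a percent of the gene's mean over the 6 retinas (vertical axis, the line marks 100), with 1 symbol for each retina. OIR-Norm replicate 2 is the highest for every gene shown.

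Among the other marker lists, the sums of astrocytes and microglia did not overlap between the groups. Those of Muller glia, rods, pigment epithelium and lens overlapped. Astrocyte markers were lower for 4 of 5 genes, with a summed level of 131.6 to 139.9 CPM in OIR-CIH and 194.0 to 242.1 CPM in OIR-Norm. Much of this sum was Gfap, the intermediate filament of reactive glia, with means of 63.8 CPM in OIR-CIH and 141.6 CPM in OIR-Norm. Gfap was called (log2 fold change −1.15) and remained so with any 1 library left out. Pax2 (−0.52) and Pdgfra (−0.46) were lower, S100b (−0.11) and Aldh1l1 (0.03) differed less, and none of these was called. Microglial markers were lower for 8 of 9 genes, with sums of 91.8 to 106.6 CPM and 113 to 131.2 CPM, and Fcrls was called (−0.69, adjusted p = 0.029 in edgeR). Fcrls remained called only when the library left out was OIR-Norm replicate 2, and its adjusted p otherwise ran from 0.0669 to 0.118. Without OIR-CIH replicate 3, where Fcrls was not called, 1 other microglial marker was. Gfap and Fcrls were also listed by the study from these libraries, so they are not independent of it. Muller glia markers, which bear on Notch1, Jag1 and Hes1, were higher for 5 of 8 genes and lower for 3 with none called, and their sums overlapped, at 3482 to 4195 CPM and 3466 to 3763 CPM. Rod markers summed to 50850 to 59030 CPM in OIR-CIH and 45110 to 58970 CPM in OIR-Norm, with 7 of 7 higher and none called. Without OIR-Norm replicate 2, and likewise without OIR-CIH replicate 1, 5 rod markers were higher and 2 lower. Markers of the pigment epithelium summed to 249 to 367 CPM and 166 to 335 CPM, with 2 of 6 higher and none called. The 5 lens genes were all lower with none called, and all 5 were higher when OIR-Norm replicate 2 was left out, and a lens gene with no row in the table was left out. No marker measured was at 0 in any library. Within a retina, Jag1 and Notch1 were lower in OIR-CIH by less than Gfap was: Jag1 over Gfap was 1.43 ± 0.121 in OIR-CIH and 0.924 ± 0.114 in OIR-Norm (SD), and Notch1 over Gfap was 0.430 ± 0.0225 and 0.284 ± 0.0190. The part of these cell types in the levels of Notch1 and Jag1 was not tested.

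The rest of the pathway was described with a list of 47 further genes, all of which could be tested. None was called, 19 were higher and 28 lower, the median log2 fold change was −0.025 (25 higher, 22 lower and a median of 0.009 without OIR-Norm replicate 2), and 8 had an unadjusted p under 0.05 (4 higher and 4 lower), beside 13.4% of all genes tested. DESeq2 also called none of the 47. The groups did not overlap for 5 genes lower and 5 higher, 10.6% each, near the 9.26% and 9.12% of all genes tested. The adjusted p-values below are from edgeR's quasi-likelihood test over all genes tested.

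Among the 5 other receptors and ligands, none was called and 1 had an unadjusted p under 0.05. This was Notch4, with 3.30, 3.78 and 4.74 CPM in OIR-CIH and 5.94, 9.19 and 3.61 CPM in OIR-Norm (log2 fold change −0.63 ± 0.28, adjusted p = 0.356). Without OIR-Norm replicate 2 its log2 fold change was −0.26 ± 0.23 (SE). Dner, a neuronal Notch-binding protein, was at 104.1 ± 11.7 CPM against 91.2 ± 7.06 CPM (adjusted p = 0.392). Dll3 and Dlk1, ligands that do not activate the receptor in the usual way, had log2 fold changes of 0.48 (adjusted p = 0.535) and −0.39 (adjusted p = 0.721). Receptor cleavage and ligand activation, 14 genes, had none called, 4 higher and 10 lower (median log2 fold change −0.022). That split turned to 10 higher and 4 lower without OIR-Norm replicate 1. With all 6 libraries, the lowest adjusted p-values of the 14 genes were those of gamma-secretase subunits. These were Psenen (0.26 ± 0.11, adjusted p = 0.350), Aph1a (0.16 ± 0.08, adjusted p = 0.416), Aph1b (0.15, adjusted p = 0.524) and Aph1c (−0.22, adjusted p = 0.627). Of the 5 glycosylation genes, which tune how receptors respond to each ligand, none was called and 4 were higher. Rfng stood at 43.0 ± 1.78 against 37.9 ± 1.71 CPM (adjusted p = 0.341), and Poglut1, Lfng and Mfng had log2 fold changes of 0.13 (adjusted p = 0.567), 0.13 (adjusted p = 0.619) and 0.09 (adjusted p = 0.743).

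The nuclear complex, 8 genes, had none called and 6 lower. The lowest adjusted p of the 47 genes was that of Spen, a co-repressor that works with RBPJ. Its level was 83.5, 109.3 and 98.5 CPM in OIR-CIH and 130.4, 132.2 and 127.1 CPM in OIR-Norm, without overlap, and the log2 fold change was −0.42 ± 0.09 (adjusted p = 0.112). The co-activator Ep300 was at 160.4 ± 9.95 against 183.8 ± 4.26 CPM (adjusted p = 0.299). The co-activators Maml2 and Maml1 had log2 fold changes of −0.12 (adjusted p = 0.669) and −0.06 (adjusted p = 0.771). None of the 8 inhibitors and turnover genes had an unadjusted p under 0.05, and their log2 fold changes ran from −0.08 to 0.15. The first of them by adjusted p were Dtx1 (0.15, adjusted p = 0.523), Dtx4 (−0.08, adjusted p = 0.752), Itch (−0.05, adjusted p = 0.814) and Dtx3 (0.06, adjusted p = 0.818).

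The 7 other genes listed as targets, like the 3 described above, did not share 1 direction, with 4 higher, 3 lower and none called. The 4 higher were Hes2, Hes3, Hes6 and Hes7, and Hes2, Hes3 and Hes7 had only 45, 35 and 85 reads in all. The 3 lower were Hey2, Heyl (log2 fold change −0.41 ± 0.37, SE) and Nrarp (−0.06 ± 0.24). Without OIR-Norm replicate 2 Nrarp was at 0.08. Hey2, the close relative of Hey1, was at 16.2, 13.6 and 15.5 CPM in OIR-CIH and 17.9, 20.6 and 18.9 CPM in OIR-Norm, lower without overlap (−0.34 ± 0.10, adjusted p = 0.228). Hey1 over Hey2 in CPM was therefore 1.36, 1.47 and 1.47 with CIH and 0.949, 0.714 and 0.869 without it, which did not overlap. Per kilobase of exon Hey1 was above Hey2 in every retina of both groups. The nearest were 4.51 and 4.49 CPM per kilobase in OIR-Norm replicate 2. Hes6, which opposes Hes1 in neuronal differentiation, was at 32.7 ± 1.11 against 26.7 ± 2.98 CPM (0.29 ± 0.09, adjusted p = 0.268). Hes7 and Hes2 were counted at most 22 and 17 times a library and had log2 fold changes of 1.004 ± 0.38 (adjusted p = 0.303) and 1.11 ± 0.71 (adjusted p = 0.523). Hes1 over Hes5, a ratio of the 2 neural targets, was 14.9, 21.8 and 16.5 in OIR-CIH and 12.6, 13.1 and 11.8 in OIR-Norm, without overlap and with the low counts of Hes5 in the divisor.

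**Figure D4:**
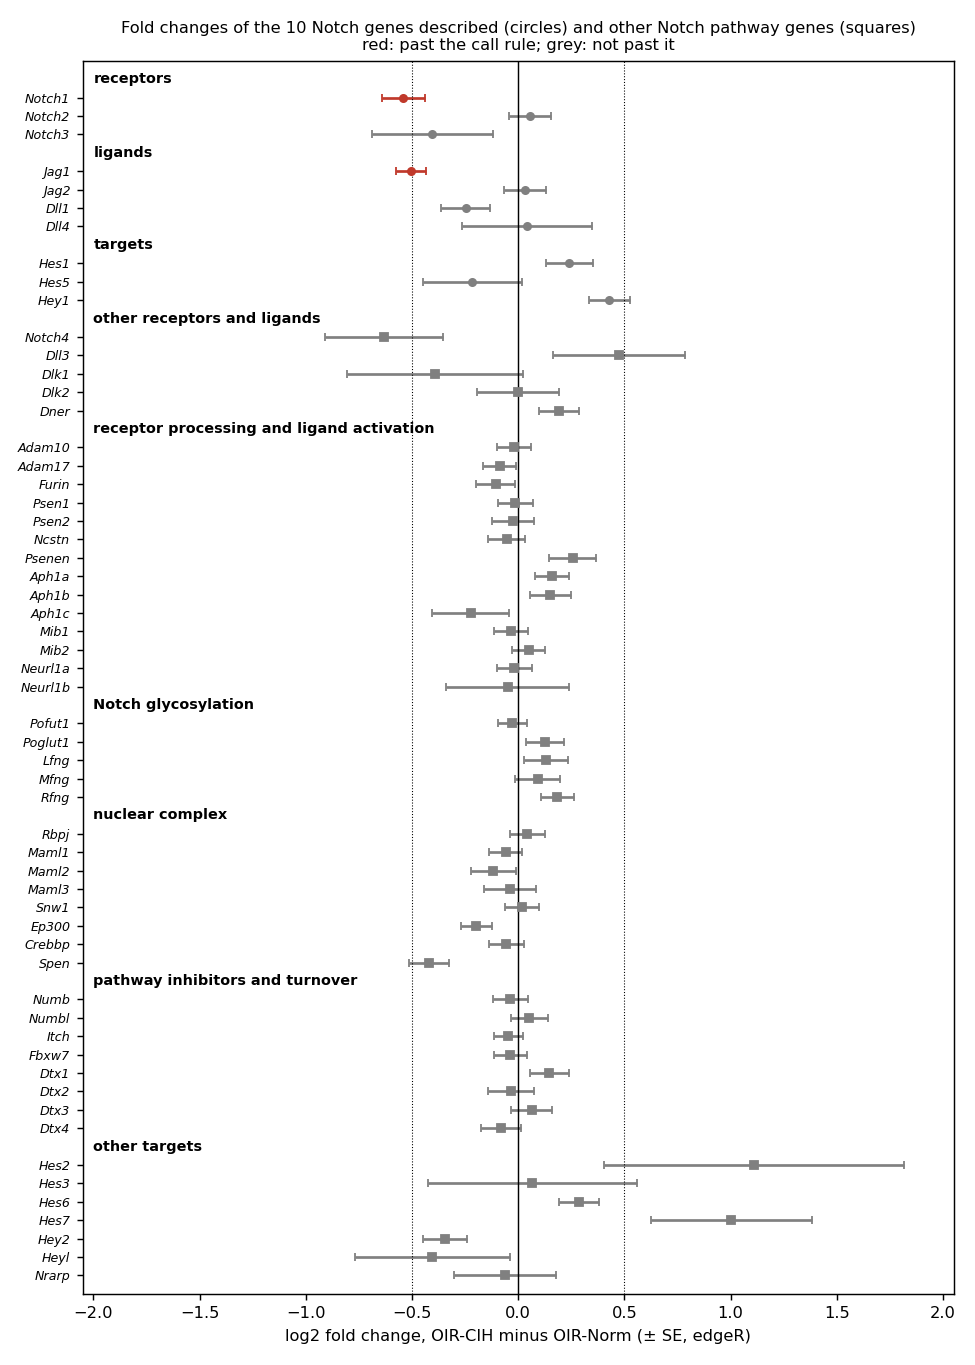
Log2 fold change of OIR-CIH over OIR-Norm with its SE for the 10 Notch genes described (circles) and the 47 other pathway genes, by role, where a value below 0 is lower in OIR-CIH. Notch1 (−0.54) and Jag1 (−0.50) are the only genes of the plot past the threshold used for calls, and Hes2 and Hes3 have the widest error bars among the targets.

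Proneural genes, which Hes proteins repress during neurogenesis, held 1 call among 7 tested (4 higher, 3 lower). Olig2 was under the filter with a total of 1 count. The called gene was Neurog2, at 24.1, 21.5 and 21.1 CPM in OIR-CIH and 15.7, 14.7 and 12.1 CPM in OIR-Norm (log2 fold change 0.65 ± 0.11, adjusted p = 0.028 in edgeR). The groups did not overlap, and Neurog2 was among the genes the study listed from these libraries, so this is not independent of it. With 1 library left out Neurog2 was called only without OIR-Norm replicate 1 (adjusted p = 0.0309), and without each of the other 5 libraries the log2 fold change ran from 0.54 to 0.68 and the adjusted p from 0.0574 to 0.178. Tip cell genes, which mark the sprouting cells that carry Dll4, had none called among 9, with 2 higher, 7 lower, a median log2 fold change of −0.16, and overlap in every one. Without OIR-Norm replicate 2, 7 were higher and 2 lower, with a median of 0.09 and none called. Apln, a secreted tip cell peptide, was at 84.1 ± 7.31 against 64.4 ± 18.4 CPM (log2 fold change 0.385, adjusted p = 0.339). Without OIR-Norm replicate 2 the log2 fold change of Apln was 0.602 ± 0.132 (SE, adjusted p = 0.142 in edgeR). Flt4, Pdgfb and Plaur had log2 fold changes of −0.33 (adjusted p = 0.435), −0.54 (adjusted p = 0.530) and −0.62 (adjusted p = 0.594). Without OIR-Norm replicate 2 these were −0.17, 0.08 and 0.09.

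The genes whose levels ran most like Notch1 over the 6 retinas, among 14798 genes of at least 1 CPM, were Pax2 (root mean square difference 0.0485 in log2 CPM centred on each gene's mean), Pprc1 (0.0525) and Pros1 (0.0653). Pax2, a transcription factor of retinal astrocytes, was at 1.10, 1.18 and 1.27 CPM in OIR-CIH and 1.69, 1.93 and 1.54 CPM in OIR-Norm. The genes nearest to Jag1 were Pbxip1 (0.0493), Trim59 (0.0580) and Prex2 (0.0586). Pbxip1 was at 93.1, 84.7 and 86.1 CPM in OIR-CIH and 124.5, 116.4 and 116.5 CPM in OIR-Norm. This likeness is a description over 6 retinas of 2 groups, and any gene that differs between the groups by a like amount has a small difference by this measure.

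Reads of some of these genes could include those of a neighbour. Notch1 shares 1068 exonic bases with the opposite-strand gene 0610009E02Rik, which had 240 counts in all against 6208 for Notch1. Notch3, Dll4 and Hes5 overlap opposite-strand genes with 162, 24 and 51 counts in all. Some genes of the pathway lists overlap opposite-strand genes with far more counts. Aph1a (5447 counts) shares 445 exonic bases with the Muller glia marker Car14 (17357 counts). Ncstn (11320 counts) shares 195 with Copa (50640 counts), and Psenen (4575 counts) shares 119 with U2af1l4 (3812 counts). The libraries were stranded, but which strand was counted is not stated in the sources used here.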

How the data were processed

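Whole-retina RNA libraries (TruSeq Stranded mRNA, 250 ng total RNA) were sequenced for 3 OIR-CIH and 3 OIR-Norm samples at PN18. The authors aligned the reads with STAR 2.7.9a and deposited raw counts per gene, not normalized, in 1 table. The submitters' processing notes name the build GRCm38, whereas the methods name Ensembl 105, so gene positions and exon lengths were taken by gene ID from the GENCODE M21 annotation of GRCm38, and the build of the counts remains unsure. Of 32285 gene IDs, 32158 were paired with a symbol. The groups come from the sample titles. The labels give no litter, batch or sex.

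The 20021 genes whose counts over all libraries summed to 10 or more were fitted with edgeR 4.0.16 in R 4.3.3 (TMM scaling, quasi-likelihood test, Benjamini-Hochberg adjustment over all genes tested, 0.5 as the minimum absolute log2 fold change of a call). The SE is the absolute log2 fold change over the square root of F. The fit was tested on simulated data of these libraries, where it called 96 of 100 genes changed by 1 and 92 of 100 changed by 0.7 on the log2 scale, and 13 unchanged genes, among 19751 genes. The changed genes were drawn from those with a mean of at least 100 reads a library. Changes near 0.5, and genes read as rarely as Dll4 and Hes5, were therefore not covered. Alternatives were DESeq2 1.42.0, limma 3.58.1, other scaling and filters, a replicate block, and each library left out, with the counts of the gene lists without each library added after the data had been seen. No 2 libraries agreed within counting noise. The 10 Notch genes, the pathway lists and the marker lists were chosen with earlier results of these data known. A gene first placed in a pathway list is not reported here and was taken out of the list's counts. Of each pathway list, every called gene is named, or otherwise up to 4 with the lowest adjusted p and any gene under the filter. Of the other targets all 7 are named, and the 3 genes nearest in pattern are named for Notch1 and Jag1. Promoter motifs were searched on both strands.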

Additional observations from a re-analysis of the deposited data

How the results depend on the processing

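The 63 genes called (42 lower and 21 higher) became 135 with DESeq2 (101 lower and 34 higher, among them all 63) over 15735 genes with an adjusted p. With 1 library left out the lowest count was 29 (OIR-CIH replicate 1 left out) and the highest 97 (OIR-Norm replicate 3 left out). The 2 Notch genes called, Notch1 and Jag1, became 1 (Jag1) with a replicate block, and 0 to 2 with 1 library left out. None of the 47 other pathway genes was called under any setting tried. The replicate numbers did not pair the samples, with correlations of deviations of 0.144, 0.126 and −0.236 between same-numbered retinas, and not every retina was nearest to its own number. The block changed no other call among the 10 genes. Over 7 alternatives that kept all 6 libraries the log2 fold change of Notch1 ran from −0.55 to −0.54, that of Jag1 from −0.51 to −0.50 and that of Hey1 from 0.42 to 0.43, and no gene of the 10 changed direction. With 1 library left out the direction was kept for Notch1, Jag1, Dll1, Hes1, Hes5 and Hey1 and not for Notch2 (−0.04 to 0.16), Jag2 (−0.03 to 0.16), Notch3 or Dll4. The causes were not tested. Depth limits Hes5, at 34 to 63 reads a library, whereas Dll4 varied by 53.8% (coefficient of variation) among the OIR-Norm retinas against 14.0% from counting in its lowest library.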
